A study of Mus musculus and Rattus norvegicus with 24 samples.

Results

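The genes described here are the heat shock proteins and chaperones, 73 of 9595 genes listed in the count table, taken by symbol: every gene named Hsp, Dnaj, Cct2 to Cct8 or Bag with a number. Hspg2, a matrix proteoglycan that shares only the letters, was left out. By family they were 6 small heat shock proteins, 13 Hsp70 genes, 3 Hsp90 genes, 34 Dnaj genes, the pair Hspd1 and Hspe1 (Hsp60 and Hsp10), 7 subunits of the chaperonin CCT, 6 Bag genes and 2 others. Counts were found for 69 of them in at least 1 cell, and Dnajb11, Dnajb5, Dnajc12 and Hspa13 had none in any.

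The counts came from RNA sequencing of single cells labelled as cardiomyocytes, 24 cells in 3 groups of 8, in a study of how heart cells made from stem cells mature. Transplanted cells were derived from a mouse embryonic stem cell line (genotype mESCIsl1-Cre; Rosa-RFP; aMHC-GFP), put into a neonatal rat heart and kept there for 30 days. Cultured cells came from the same line and spent those 30 days in vitro. Adult cells were ventricular cardiomyocytes of adult WT rats. Both stem cell groups therefore carry the Cre, named with Isl1, and the reporters RFP, named with Rosa, and GFP, named with aMHC. The adult cells differ from both stem cell groups in species as well as in origin. Only 1 line is named, and no label names an animal, a dish or a batch. A group is therefore a single sample. Tests between groups were not possible, and all intervals below cover counting error only.

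Total counts ran from 88796 to 344224 in transplanted, 16099 to 60789 in cultured and 108546 to 223744 in adult cells, so cultured levels are the least precise. Levels are CPM, the counts per 1000000 of the group's summed total, and 3 counts over a group, the limit that a count of 0 allows, correspond to 2.30 CPM for the transplanted, 14.6 for the cultured and 2.36 for the adult group. Cardiomyocyte markers took 18.3% to 24.8% of the counts of transplanted cells and 19.1% to 24.5% of adult cells, with 11 of 12 detected and the atrial light chain gene Myl7 at 0. In cultured cells they took from 0.00837% to 16.5%, with Ttn, Myh6, Tnnt2 and Actc1 all at 0 in cells G and H. Tnnt2 was also at 0 in cultured cells B, E and F. Myl7, on the same list, had 78 counts in cultured cell F, 20 in G and 1 in H. Fibroblast markers had 0 counts in transplanted cells, 155 in cultured and 1 in adult cells, from 7 listed genes. The cultured counts came from 3 of the 7, with Col3a1, Dcn, Lum and Postn at 0. Endothelial markers had 218 counts over 3 transplanted cells, with Cdh5 and Kdr at 0, and 0 counts in both other groups, from 4 listed genes. Smooth muscle and pericyte markers had 12, 146 and 669 counts in 2, 5 and 5 cells, from 5 listed genes, with Tagln, Cnn1 and Pdgfrb at 0 in adult cells, and the macrophage gene Cd68 had 21 counts in 1 cultured cell. Cultured cells also had more counts on the ribosomal RNA gene Rn45s, with a median of 7.02% against 1.20% and 1.23%. They were of unlike make-up. Cultured cells B, C, D and E had 2.51% to 5.48% of counts on Rpph1, 8.59% to 13.2% on Rn45s and 4.42% to 15.1% on Ttn. Cultured cells A, F, G and H had at most 0.0574%, 5.44% and 0.0707%. Among genes named below, cultured counts of Bag4 and nearly all of Hsp90aa1 lay in B to E, while those of Hspb11 and Dnajc15 lay in the other cells. The parts of cell identity, depth and RNA make-up in the differences between groups were not tested. The mouse build mm10 is named for the rat cells too, and how rat reads were handled is not given in the sources used here. A lower level in adult cells and a poorer match of rat sequence cannot be told apart.

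Chaperones bind unfolded or newly made proteins and keep them from clumping. Small heat shock proteins hold them without using ATP and are abundant in striated muscle, where they protect the contractile apparatus. Hsp70 proteins fold clients in cycles of ATP hydrolysis that J-domain proteins (the Dnaj genes) start and nucleotide exchange factors such as the Bag proteins end. Hsp90 proteins finish the maturation of kinases, receptors and myosin, and Hsp60 with Hsp10 and CCT are closed folding chambers in mitochondria and cytosol. On stress, the factor Hsf1 binds heat shock elements, inverted repeats of the letters GAA, in promoters of the inducible members.

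Of the 73 genes, 60 had a promoter window of 250 bases before to 50 bases after a start in RefSeq (GRCm38.p6). The strict element searched was GAANNTTCNNGAA or TTCNNGAANNTTC, on both strands. It occurred for 4 of the 60 (6.67%), against 179 of 27025 genes with a window (0.662%) and 46 of 7427 such genes of the count table (0.619%). The 30 bases around it are shown for the genes with the site before the start. By the RefSeq starts, one of these sites lies between Hspd1 and Hspe1, neighbours read in opposite directions, whose counts are compared below. GENCODE M21 has Hspd1 start at base 55088243 and Hspe1 at 55088132, and the site then lies within Hspd1. Capitals mark the GAA and TTC triplets.
Hspe1 (chr1:55088053-55088082, plus strand, 95 to 66 bases before its start): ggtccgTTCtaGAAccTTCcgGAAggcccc
Hspd1 (the same bases on the minus strand, 150 to 121 bases before its start): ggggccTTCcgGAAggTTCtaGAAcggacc
Dnajb6 (chr5:29735843-29735872, plus strand, 55 to 26 bases before its nearer start): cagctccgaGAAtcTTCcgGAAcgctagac
The Hspd1 and Hspe1 lines are 1 site read from both strands. It holds 4 triplets in a row, and Dnajb6 holds 3. Hsph1 has a match after its start. A match is a run of letters and was not tested as a binding site.

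Together the chaperones took a small share of the counts in all groups, lowest in the cultured group, and from different genes. They made up 0.735% of counts in transplanted, 0.547% in cultured and 0.817% in adult cells. Per cell the share ran from 0.472% to 1.10% (median 0.763%) in transplanted, from 0.234% to 0.753% (median 0.564%) in cultured and from 0.554% to 1.27% (median 0.733%) in adult cells, and the ranges overlap. The summed ratio was 1.34 for transplanted against cultured (95% interval 1.26 to 1.43), 1.49 for adult against cultured (1.40 to 1.59) and 1.11 for adult against transplanted (1.08 to 1.14), and the last was 0.979 without adult cell A. Scaling with TMM factors raised every ratio to cultured cells 1.89-fold. Within the chaperone counts, which need no scaling between libraries, small heat shock proteins made up 25.7% in transplanted (24.9% to 26.6%), 0.621% in cultured (0.250% to 1.28%) and 19.5% in adult cells (18.7% to 20.2%). The cultured share was 0.202% without cultured cell A. The Bag genes ran the other way, with 0.669% in transplanted, 14.5% in cultured and 2.19% in adult cells. Hsp90 genes made up 27.3%, 20.6% and 6.95%, Hsp70 genes 7.53%, 13.4% and 14.5%, and Dnaj genes 21.7%, 26.7% and 37.4%, in the same order. Without adult cell A the adult Dnaj share was 22.6%, below the cultured one, and without adult cell G the adult Bag share was 0.700%.

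**Figure D1:**
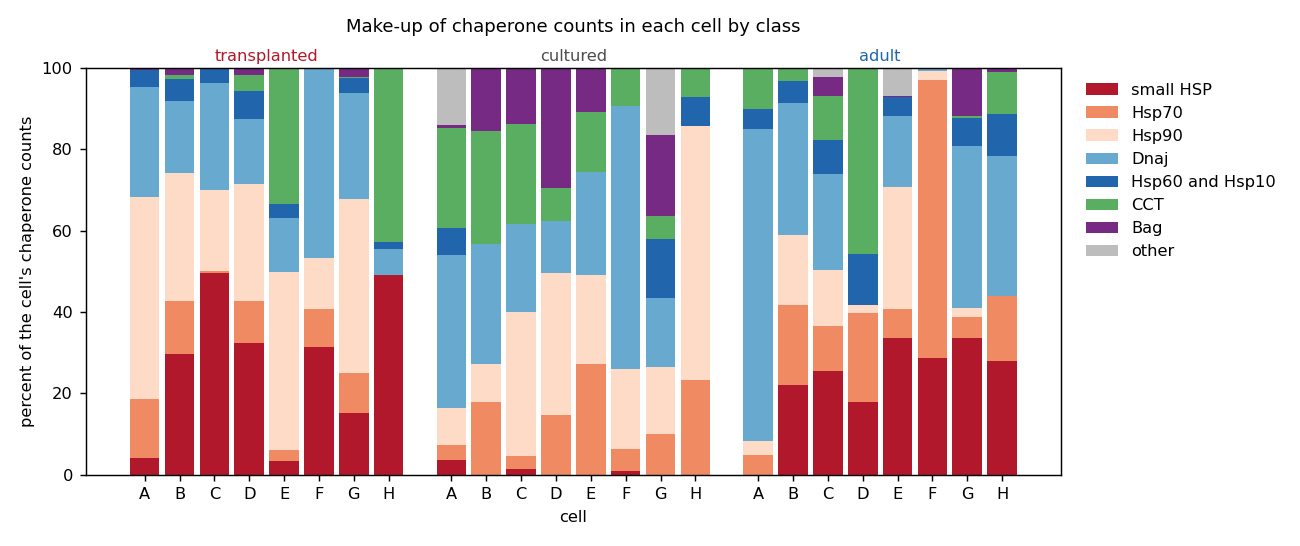
Each bar is 1 cell, letters A to H, and the colours give the percent of its chaperone counts in each class, from 0 to 100. Small heat shock proteins reach at most 3.70% in a cultured cell, against medians of 30.6% in transplanted and 26.8% in adult cells, and single classes fill much of some cells, such as Dnaj in adult cell A and Hsp70 in adult cell F.

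Most members were seen in few cells. Of members with at least 10 counts in a group, 9 of 31 (29.0%) had counts in at least 4 of the 8 transplanted cells, 9 of 30 (30%) in cultured and 15 of 37 (40.5%) in adult cells. For all listed genes these shares were 22.8%, 20.2% and 24.6%. The median member had 79.3%, 70.7% and 75.7% of its counts in 1 cell, against 96.9%, 80% and 90.9% for all genes. After thinning every cell to 16099 counts, a median of 9.90 members was detected per transplanted cell, 13.7 per cultured and 10.7 per adult cell (12.5, 14 and 15 before thinning). As a share of all genes detected at that depth this was 1.58%, 0.837% and 1.75%, with ranges of 1.14% to 1.88%, 0.609% to 1.04% and 0.887% to 1.996%. The transplanted and cultured ranges of this share do not overlap, but the numbers of members do (5.20 to 16.55 and 5.45 to 18.4). All genes detected at that depth had medians of 608 per transplanted, 1461 per cultured and 689 per adult cell.

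Past 2-fold, 15 of 47 members with at least 10 counts were higher in transplanted than in cultured cells (22.5% of all genes were) and 22 were lower (64% of all genes). Without each cell in turn, 7 and 9 of them stayed past 2-fold with at least 10 counts, where 8.96% and 21% of all genes did. In adult against cultured cells, 19 of 52 were higher (23% of all genes) and 18 lower (62.1%), and 10 and 8 stayed so (9.28% and 20.1% of all genes). In adult against transplanted cells, 23 of 46 were higher (44.3% of all genes) and 15 lower (34.8%), and 12 and 3 stayed so (9.63% and 5.68%). The median log2 ratio of members was -0.55, 0.58 and 1.08 in these comparisons, where all genes had -5.63, -3.85 and 0.37. The first of the members' medians turned to 0.33 with TMM factors, 0.64 with a minimum of 30 counts and 0.47 without cultured cell G. With groups that had no count set to the floor of 3 counts, members had -0.57, 0.43 and 1.09 and all genes -4.53, -4.04 and 0.37. The 3 comparisons share their groups and are not independent of each other.

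**Figure D2:**
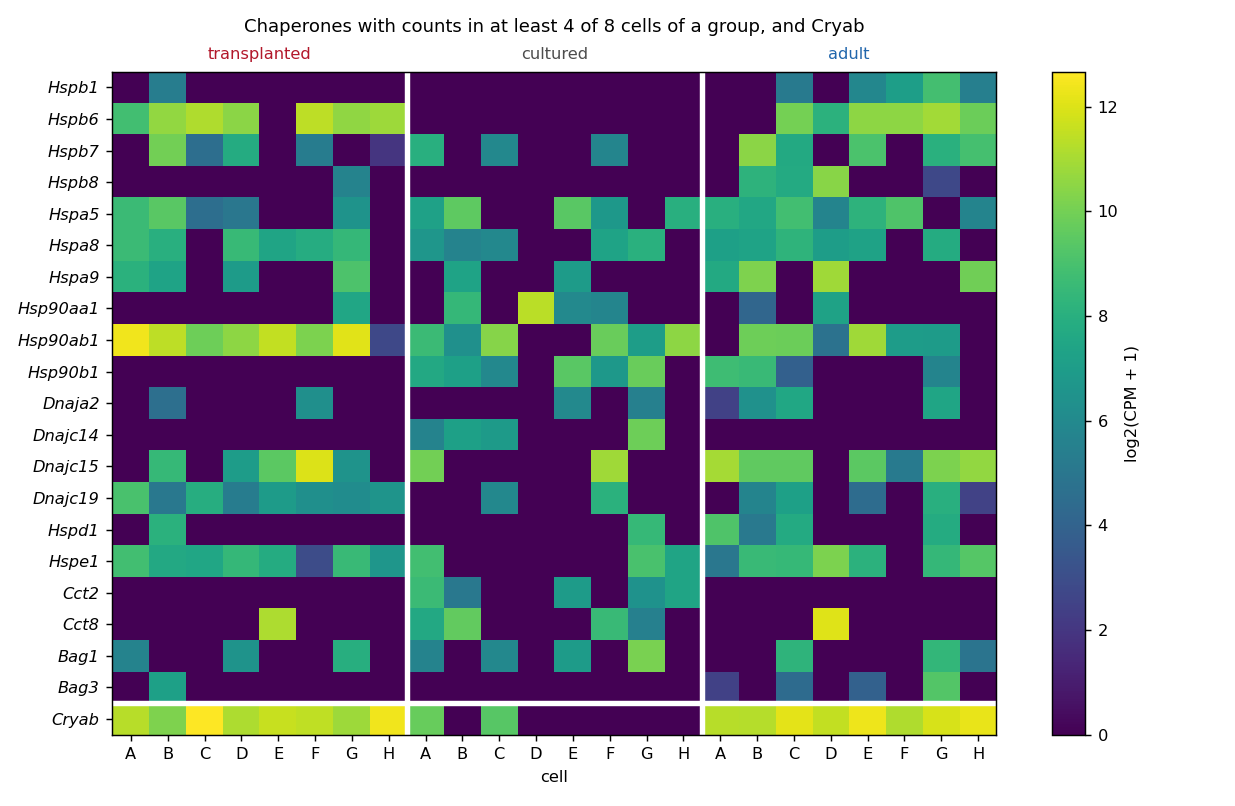
Rows are the members with at least 10 counts, spread over at least 4 of 8 cells, in some group, and below the white line Cryab, a related gene outside the symbol rule. Columns are cells, and colour is log2(CPM + 1), with the darkest colour for 0. Hspb6 is dark in all 8 cultured cells and lit in 7 of 8 transplanted and 6 of 8 adult cells, while Hsp90b1 is dark in all transplanted cells.

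Of the classes with counts in every group, small heat shock proteins gave the largest fold between groups. Summed over the 6 genes they stood at 1889.7 CPM in transplanted, 34.0 in cultured and 1588.6 in adult cells. Cells ran from 215 to 2894 CPM (median 1986) in transplanted, from 0 to 252 (median 0) in cultured and from 0 to 2711 (median 1739.5) in adult cells. Transplanted cells exceeded cultured cells 55.7-fold (27.0 to 139) and adult cells exceeded them 46.8-fold (22.7 to 117). All 7 cultured counts were of Hspb7, with 5 in cell A and 1 each in cells C and F. Without cultured cell A the folds were 176 and 148. Adult against transplanted cells gave 0.841 (0.792 to 0.892), which was 1.02 without adult cell A or without transplanted cell H.

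Hspb6 (Hsp20, on chromosome 7 at 30552178 to 30555443, plus strand, in GENCODE M21 on GRCm38), a partner of Cryab that is phosphorylated by protein kinase A, took 75.5% of the class in transplanted and 53.8% in adult cells. Its counts were 65, 192, 206, 220, 0, 406, 154 and 617 in transplanted cells A to H, 0 in every cultured cell, and 0, 0, 152, 44, 208, 157, 337 and 189 in adult cells A to H. It was thus missing in transplanted cell E and in adult cells A and B, while the other cells of those groups had at least 44 counts. Its level was 1428 CPM in transplanted (1363 to 1494) and 855 in adult cells (805 to 907), at least 98.1-fold and at least 58.8-fold above the cultured floor of 3 counts. Adult cells were 1.67-fold below transplanted cells (1.55 to 1.80). Without Hspb6 the class folds were 13.6 for transplanted and 21.6 for adult against cultured, and the adult level was then 1.59 times the transplanted one.

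Of the other small heat shock proteins, Hspb7, Hspb8 and Hspb1 were higher in adult than in transplanted cells. Hspb2 stayed within 2-fold between these groups, and Hspb3 rested on single cells. Hspb7 (cvHSP), a cardiac member that binds filamin, was at 130 CPM in transplanted (5 cells), 34.0 in cultured (3 cells) and 335 in adult cells (5 cells). It was 3.82-fold higher in transplanted than cultured cells (1.81 to 9.65), 12.1-fold without cultured cell A and 1.10-fold without transplanted cell B, which held 125 of 169 counts. Adult cells exceeded cultured cells 9.87-fold (4.75 to 24.7; 31.2 without cultured A) and transplanted cells 2.58-fold (2.16 to 3.11; 8.97 without transplanted B). Hspb8 (Hsp22), which works with Bag3 in clearing damaged muscle proteins, had 5 transplanted counts, 0 cultured and 276 adult counts, 209 of them in cell D. Adult cells exceeded transplanted cells 56.6-fold (23.9 to 176; 15.6 without adult D, at least 87.0 without transplanted G) and cultured cells at least 14.9-fold (4.12 without adult D). Hspb1 (Hsp27) had 5, 0 and 119 counts, with 82 of the adult ones in cell G. Its adult level was 24.4 times the transplanted one (10.2 to 76.5; 8.77 without adult G, at least 36.8 without transplanted B) and at least 6.43 times the cultured one (2.31 without adult G). Of its 50-base words, 48.8% also occur in the pseudogene Hsp25-ps1, so its reads are uncertain. Hspb2 had 72 transplanted counts (42 in E, 26 in F, 4 in G), or 55.3 CPM, and 83 adult counts (76 in H, 7 in C), or 65.3 CPM. Hspb3 had 351, all in transplanted cell H, and 29, all in adult cell C.

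Cryab (alpha B crystallin, HspB5) belongs to this family by protein but not by symbol, and it lies head to head with Hspb2 on chromosome 9. It was in all 8 transplanted cells, from 1184 to 6532 CPM with a median of 2662. It was in all 8 adult cells too, from 2312 to 5309 CPM with a median of 3393. Of 8 cultured cells only A, with 17 counts, and C, with 11, had any. It was 25.4-fold higher in transplanted (17.6 to 38.3) and 27.1-fold in adult than in cultured cells (18.7 to 40.8). These folds were 58.5 and 62.3 without cultured cell A, and 38.5 and 41.0 without cultured cell C. Transplanted and adult sums differed by a factor of 1.07 (1.02 to 1.11), which was 0.992 without adult H and 0.997 without transplanted B. Per kilobase of exon, Cryab had 2334 CPM in transplanted and 2488 in adult cells, above the 621 and 372 of Hspb6. Cells A and C are also 2 of the 3 cultured cells with any Hspb7.

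**Figure D3:**
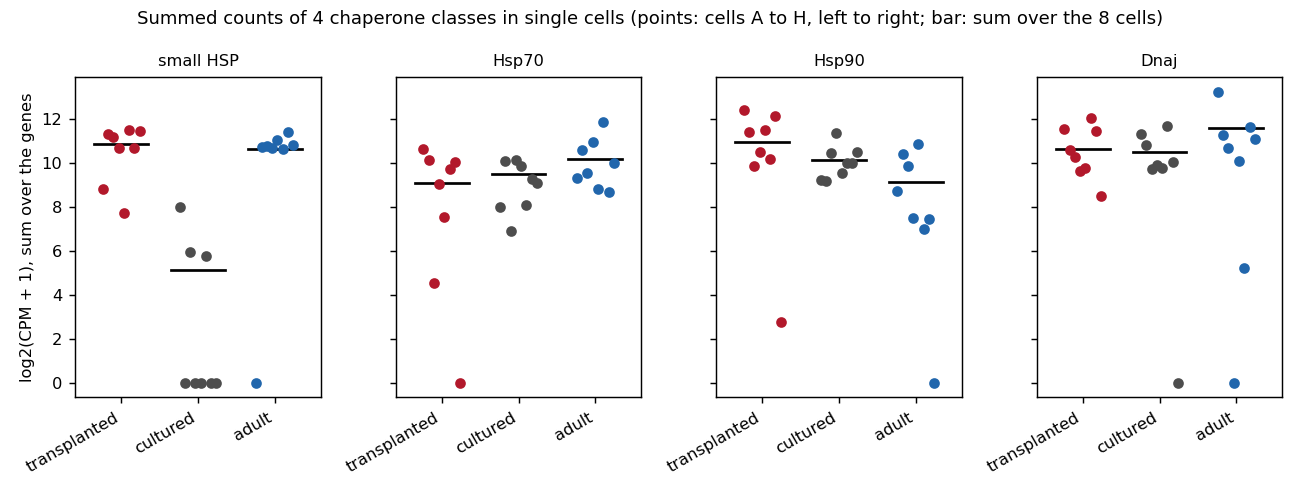
Points are cells A to H of each group, from left to right, bars are the level of the summed group, and the vertical axis is log2(CPM + 1) of the summed class, with 0 for no count. For small heat shock proteins 5 of 8 cultured cells lie at 0. The groups overlap in every class shown, for small heat shock proteins through cultured cell A, transplanted cell E and adult cell A, and the order of transplanted and cultured cells in the Hsp70 and Dnaj panels turns with the scaling of the libraries.

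Hsp70 genes summed to 553 CPM in transplanted, 732 in cultured and 1183 in adult cells. Transplanted cells were 1.32-fold below cultured cells (1.10 to 1.58), but the ratio turned to 1.43 with TMM factors, 1.09 with equal weight for each cell and 1.03 without transplanted cell H. Adult cells were 1.62-fold above cultured (1.37 to 1.92) and 2.14-fold above transplanted cells (1.95 to 2.34). Hspa8 (Hsc70), the constitutive cytosolic Hsp70, was the most evenly spread. It ran from 0 to 394 CPM (median 244, 6 cells) in transplanted, from 0 to 265 (median 54.8, 5 cells) in cultured and from 0 to 298 (median 152, 6 cells) in adult cells. Summed, it was 2.63-fold higher in transplanted than cultured cells (1.56 to 4.76) and 1.89-fold higher in adult than cultured cells (1.12 to 3.45), on only 15 cultured counts. No single cell moved either value by over 1.5 times. Pseudogenes and other genes share 38.6% of its 50-base words.

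The organelle forms of Hsp70 differed from Hspa8 and from each other. Hspa5 (BiP), of the endoplasmic reticulum, was at 122 CPM in transplanted, 325 in cultured and 210.0 in adult cells. It was 2.66-fold lower in transplanted than cultured cells (1.97 to 3.56). That value was 1.24-fold without cultured cell B, which held 45 of 67 counts, and 5.32-fold without transplanted cell B. Hspa8 made up 61.03% of the summed Hspa8 and Hspa5 counts in transplanted cells (56.1% to 65.8%), 18.3% in cultured (10.6% to 28.4%) and 39.6% in adult cells (35.0% to 44.3%). The cultured share was 35.3% without cultured cell B and 11.8% without cultured cell G. Hspa9 (mortalin), the motor of mitochondrial import, was at 103 CPM in transplanted, 58.2 in cultured and 530.1 in adult cells, in 4, 2 and 4 cells. Adult cells exceeded cultured cells 9.11-fold (5.18 to 17.7; 38.5 without cultured B, 6.02 without adult D) and transplanted cells 5.15-fold (4.28 to 6.25; 8.28 without transplanted G, 3.41 without adult D). Transplanted against cultured cells gave 1.77 (0.979 to 3.51), from 7.48 without cultured B to 1.10 without transplanted G.

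The stress-inducible Hsp70 genes Hspa1a and Hspa1b were close to absent. Hspa1a had 4 counts in transplanted cell G, 0 in cultured cells and 32 in adult cell G. Hspa1b had 1 count in transplanted cell D, 7 in cultured cell G and 0 in adult cells. They share 60.3% and 62.3% of their 50-base words, mostly with each other, so reads may have been placed on either or dropped. The Hsp110 genes, exchange factors for Hsp70, sat in single cells: 79 transplanted counts of Hspa4 in cell F, 31 cultured counts of Hspa4l in cell D, and 348 adult counts of Hsph1 in cell F, with none of Hsph1 elsewhere. Hspa4 also had 9 counts over 3 cultured cells and 6 in adult cell A, and Hspa4l had 3 in transplanted cell E and 1 in adult cell H. Of the remaining members, Hspa12a had 66 counts in transplanted cell A and 1 adult count, Hspa2 had 16 in transplanted cell F and 1 cultured count, Hspa14 had 10 in transplanted cell A and 3 cultured counts, and Hspa12b had 6 in cultured cell H.

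Hsp90 genes summed to 2008 CPM in transplanted, 1125 in cultured and 568 in adult cells. Transplanted cells were 1.78-fold above cultured cells (1.56 to 2.05) and adult cells 1.98-fold below them (1.70 to 2.30), and TMM factors took these ratios to 3.37 and 0.956. Adult cells were 3.54-fold below transplanted cells (3.26 to 3.85). Hsp90ab1 (on chromosome 17 at 45567775 to 45573271, minus strand), the constitutive cytosolic form, carried the transplanted level, with 27.1% of all their chaperone counts. Transplanted cells A to H had 771, 341, 83, 226, 562, 174, 439 and 2 counts, cultured cells 8, 5, 22, 0, 0, 16, 3 and 35, and adult cells 0, 112, 133, 4, 260, 14, 21 and 0. As levels, transplanted cells ran from 5.81 to 5431 CPM (median 2095), cultured from 0 to 1465 (median 268) and adult from 0 to 1855 (median 126), so the groups overlap through transplanted cell H, the deepest cell, and the highest cultured and adult cells. The transplanted sum exceeded the cultured one 4.62-fold (3.74 to 5.77), and no single cell moved that by over 1.5 times. The adult sum was 4.66-fold below the transplanted one (4.25 to 5.12), or 7.94-fold without adult cell E. Adult against cultured cells gave 0.991 (0.791 to 1.25), and leaving out single cells moved it to between 0.582 (without adult E) and 1.44 (without cultured H).

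The inducible and the endoplasmic reticulum forms of Hsp90 were lowest in transplanted and highest in cultured cells. Hsp90aa1, the stress-inducible cytosolic form, was at 13.8 CPM in transplanted (18 counts, all in cell G), 466 in cultured and 20.4 in adult cells (24 of 26 counts in D). Of 96 cultured counts, 73 were in cell D, 21 in B and 1 each in E and F. Transplanted cells were 33.7-fold below cultured cells (20.2 to 59.3; 9.34 without cultured D, at least 187 without transplanted G) and adult cells 22.8-fold (14.6 to 36.6; 6.31 without cultured D, 260 without adult D). Other genes share 47.5% of its 50-base words. Hsp90ab1 made up 99.3% of the counts of both cytosolic forms in transplanted cells (98.9% to 99.6%), 48.1% in cultured (40.7% to 55.6%) and 95.4% in adult cells (93.4% to 97.0%). The cultured share was 79.5% without cultured cell D, which had no Hsp90ab1 count. It led Hsp90aa1 in 8 of 8 transplanted, 5 of 8 cultured and 5 of 8 adult cells. Hsp90b1 (Grp94), the reticulum form that folds integrins and other membrane proteins, had 0 transplanted counts in 1302871, 47 cultured counts over 6 cells and 152 adult counts over 4 cells. Its transplanted level was at least 99.0-fold below the cultured one (63.9 without cultured G). Adult cells were 1.91-fold below cultured cells (1.34 to 2.66), from 1.23 without cultured G to 4.27 without adult A.

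Dnaj genes summed to 1596 CPM in transplanted, 1459.9 in cultured and 3058 in adult cells. Transplanted against cultured cells gave 1.09 (0.969 to 1.24), which fell below 1 without transplanted F (0.849), transplanted A (0.978) or cultured H (0.967), and at 0.952 when Rn45s, Rpph1 and Ttn were left out of the totals. Adult cells were 2.09-fold above cultured (1.86 to 2.36) and 1.92-fold above transplanted cells (1.82 to 2.02), but 1.11-fold and 1.02-fold without adult cell A. That cell held 1014 of 1015 adult counts of Dnaja3, a mitochondrial J-protein, 400 of 551 of Dnajb1 and 325 of 448 of Dnajc30, 3 genes named after their values were seen. Counts were found for 18 of 34 Dnaj genes in transplanted, 20 in cultured and 23 in adult cells, and 10, 11 and 13 of these rested on 1 cell.

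Dnajc15 and Dnajc19, both J-proteins linked to the mitochondrial import motor, were the broadest of the family. Dnajc19 was in all 8 transplanted cells, from 32.2 to 528 CPM (median 86.1), in 2 cultured cells, with 5 counts in F and 1 in C, and in 5 adult cells, from 0 to 250.1 CPM (median 13.1). The transplanted sum of 139 CPM was 4.77-fold above the cultured 29.1 (2.15 to 13.2; 26.1 without cultured F, 3.14 without transplanted A). The adult sum of 58.2 was 2.39-fold below the transplanted one (1.81 to 3.17; 4.93 without adult G, 1.57 without transplanted A). Dnajc15 was in 5 transplanted cells, with 626 of 840 counts in F, in cultured cells A (20) and F (34), and in 7 adult cells, from 0 to 1975 CPM (median 754). Adult cells exceeded cultured cells 3.82-fold (2.91 to 5.11; 9.38 without cultured F) and transplanted cells 1.55-fold (1.42 to 1.69; 5.38 without transplanted F). The transplanted excess over cultured cells of 2.46-fold (1.87 to 3.30) turned to 0.710 without transplanted cell F and was 6.05 without cultured F. Dnaja2, a main cytosolic partner of Hspa8, was at 11.5, 9.70 and 53.5 CPM and 4.65-fold higher in adult than transplanted cells (2.63 to 8.75; 3.00 without adult G, 20.5 without transplanted F). Dnajc14 had 33 counts over 4 cultured cells and 0 in the other groups, at least 69.5-fold lower in transplanted and 67.8-fold lower in adult cells (28.4 and 27.7 without cultured G).

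Hspe1 (Hsp10) and Hspd1 (Hsp60) act as lid and barrel of the mitochondrial chamber and share the promoter region printed above. Hspe1 was in all 8 transplanted cells, from 6.61 CPM in cell F to 451 (median 213). It was in 3 cultured cells, with 9, 12 and 4 counts in A, G and H, and in 7 adult cells, from 0 in cell F to 1159 CPM (median 348). Adult cells exceeded cultured cells 3.37-fold (2.25 to 5.25) and transplanted cells 1.91-fold (1.65 to 2.22), and transplanted cells exceeded cultured cells 1.76-fold (1.17 to 2.77). Without cultured cell G the folds over cultured cells were 5.76 and 3.01. Hspd1 had 34 counts in transplanted cell B, 8 in cultured cell G and 204 over adult cells A, B, C and G (131, 4, 31 and 38). It was 6.15-fold higher in adult than transplanted cells (4.26 to 9.12; 2.67 without adult A, at least 63.0 without transplanted B). Adult cells exceeded cultured cells 4.13-fold (2.06 to 9.71; 1.80 without adult A, at least 9.81 without cultured G). Hspe1 led Hspd1 per kilobase of exon 14.7-fold in transplanted, 5.60-fold in cultured and 4.56-fold in adult cells, and both genes have the element in their windows. All Hspd1 counts of the transplanted and of the cultured group came from 1 cell each. The cultured ratio was 3.58 without cultured A, and the adult ratio was 12.6 without adult A and 3.00 without adult D. Hspd1 shares 39.7% and Hspe1 18.4% of their 50-base words with other genes, mostly pseudogenes.

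The 7 CCT subunits, which form 1 ring together with Tcp1, summed to 1009 CPM in transplanted, 960.3 in cultured and 957 in adult cells, with ratios of 1.05 (0.904 to 1.23), 0.997 (0.857 to 1.16) and 0.948 (0.876 to 1.03). Their direction turned with many single cells, and the sums rested on few: 794 of 825 transplanted counts of Cct6a were in cell H, all 430 of Cct8 in cell E, and all 646 adult counts of Cct8 in cell D. Without transplanted H, the transplanted ratio to cultured cells was 0.514, and without adult D the adult one was 0.532. Cultured cells were the only group with CCT counts in 8 of 8 cells, against 5 transplanted and 6 adult cells. Cct2 had 18 counts over 5 cultured cells and none elsewhere, at least 37.9-fold lower in transplanted and 37.0-fold lower in adult cells (23.3 and 22.7 without cultured A). Past 2-fold, 5 of 7 subunits were lower in transplanted than cultured cells and 1, Cct6a, was higher, close to the shares of all genes (64% and 22.5%).

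The 6 Bag genes summed to 49.1 CPM in transplanted, 791 in cultured and 179 in adult cells. Transplanted cells were 16.1-fold below cultured cells (12.0 to 21.8; 24.4 without transplanted G) and adult cells 4.43-fold (3.60 to 5.44; 13.8 without adult G). Bag4, a silencer of death receptors that was named after its values were seen, had 55, 54 and 2 counts in cultured cells B, D and C and 0 elsewhere. It was at least 234-fold lower in transplanted and 228-fold lower in adult cells (139 and 136 without cultured D). Bag1 was at 35.3, 141 and 84.2 CPM, 3.98-fold lower in transplanted than cultured cells (2.41 to 6.48), and this turned to 1.62-fold higher without cultured cell G, which held 25 of 29 counts. Without transplanted G it was 8.06-fold lower. Bag3, the stress-inducible partner of Hspb8 which is mutated in muscle disease, had 18 counts in transplanted cell B, 0 in cultured cells and 112 in adult cells, 106 of them in G. Hspb11, named as a heat shock protein but known as a subunit of intraflagellar transport, had 19 and 23 counts in cultured cells A and G and 0 elsewhere, at least 88.5-fold lower in transplanted and 86.3-fold lower in adult cells (45.0 and 43.9 without cultured G, 53.6 and 52.3 without cultured A). Hspbp1, an Hsp70 exchange factor, had 84 counts in 2 adult cells only, at least 28.7-fold higher than in transplanted and 4.54-fold than in cultured cells (8.83 and 1.40 without adult E).

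**Figure D4:**
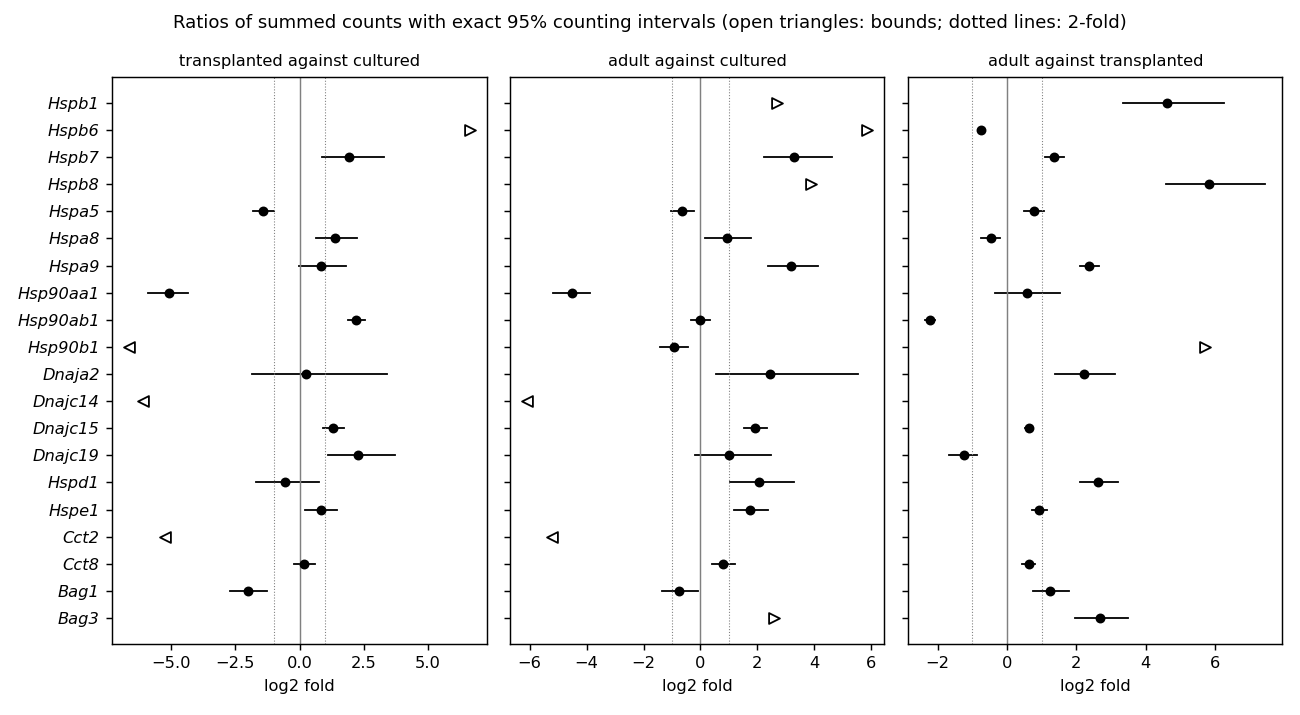
Each row is a member found in 4 or more of the 8 cells of some group, and the horizontal axis is the log2 fold between summed groups. Lines are exact 95% counting intervals, open triangles are bounds against a group with no count, and dotted lines mark 2-fold. Small heat shock proteins lie right of 0 against cultured cells, Hsp90ab1 lies right of 0 only for transplanted against cultured cells, and Hsp90aa1 lies left of 0 against cultured cells.

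Members were also grouped by compartment and by known heat induction, lists chosen after the counts were seen. The 7 mitochondrial genes (Hspa9, Hspd1, Hspe1, Dnaja3, Dnajc15, Dnajc19, Dnajc30) stood at 1134 CPM in transplanted, 524 in cultured and 3307 in adult cells. Adult cells were 6.31-fold above cultured (5.22 to 7.71) and 2.92-fold above transplanted cells (2.75 to 3.10), or 4.08-fold and 1.88-fold without adult A, and the latter was 4.54-fold without transplanted F. Transplanted cells were 2.16-fold above cultured cells (1.78 to 2.66), or 1.39-fold without transplanted F. The 8 endoplasmic reticulum members (Hspa5, Hspa13, Hsp90b1, Dnajb9, Dnajb11, Dnajc1, Dnajc3, Dnajc10) had 171, 844 and 347 CPM, 4.93-fold lower in transplanted than cultured cells (4.02 to 6.04; 2.45 without cultured B, 7.65 without transplanted B). Adult cells were 2.43-fold below cultured cells (2.03 to 2.91; 1.21 without cultured B). The heat-inducible genes (Hspa1a, Hspa1b, Hsph1, Hsp90aa1, Dnajb1, Dnaja1, Hspb1, Bag3) had 37.6 CPM in transplanted, 572 in cultured and 1007 in adult cells. Only 3 transplanted cells had any, against 6 cultured and 8 adult cells. Transplanted cells were 15.2-fold below cultured cells (10.8 to 21.7; 6.71 without cultured D, 25.9 and 28.7 without transplanted B and G). Hsp90aa1 alone gave 96 of the 118 cultured and 18 of the 49 transplanted counts, so this fold rests largely on that gene. The fold without Hsp90aa1 was not computed. Hspd1 and Hspe1, which have the element in their windows, were not on the list. Their sum was higher in transplanted than in cultured cells, at 239 against 160.1 CPM. Dnajb4, also off the list and named after its values were seen, was at 333 CPM in transplanted and 48.5 in cultured cells. Cell A held 79.3% of its transplanted counts. The heat-inducible folds therefore hold for the listed genes only. For these, adult cells exceeded transplanted cells 26.8-fold (20.1 to 36.4; 45.6 and 50.4 without transplanted B and G) and cultured cells 1.76-fold (1.46 to 2.14; 3.99 without cultured D). Immediate early genes of dissociated cells, a list that also answers to handling, took a median of 0.0444% of counts in transplanted (highest cell 0.200%), 0.0171% in cultured (highest 0.456%) and 0.0171% in adult cells (highest 0.0721%). Of the summed counts they took 0.0720%, 0.0825% and 0.0218%, so the cultured group was highest by the sum and the transplanted group by the median. Their part in the heat-inducible counts was not tested. The constitutive pair Hspa8 and Hsp90ab1 had 2185, 504 and 565 CPM, 4.33-fold higher in transplanted than cultured cells (3.56 to 5.32).

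**Figure D5:**
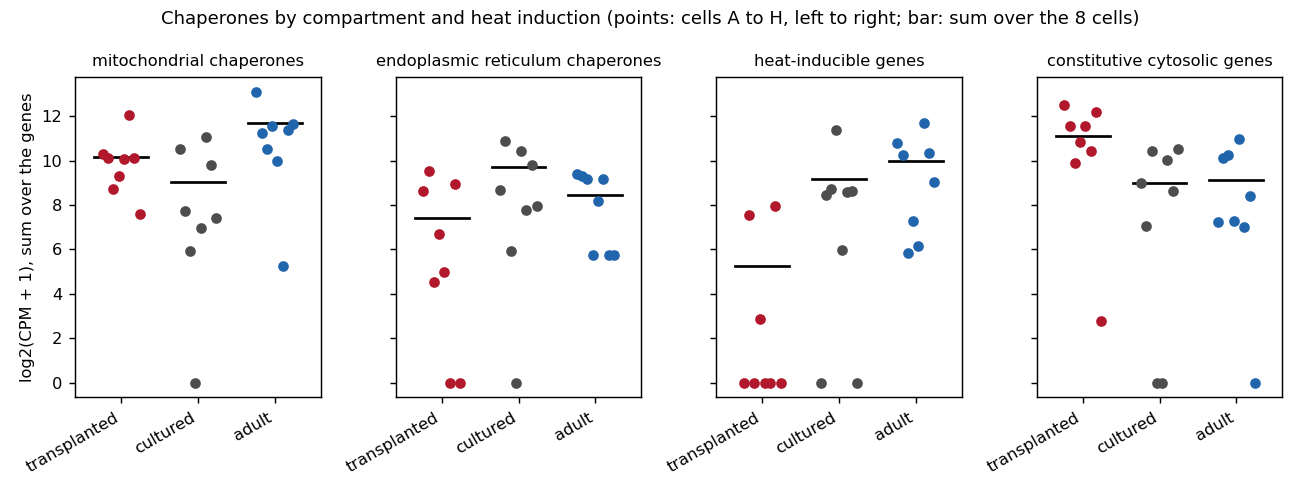
Points are cells A to H of each group, bars are the summed group, and the vertical axis is log2(CPM + 1) of each list. Heat-inducible genes are at 0 in 5 of 8 transplanted cells and above 0 in all 8 adult cells, and the constitutive pair has its highest median in transplanted cells (2409 CPM against 451 and 249.7), with groups that overlap.

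Of a list of 62 further chaperone cofactors and regulators, 56 were in the count table. Past 2-fold, 13 of 41 with at least 10 counts were higher and 18 lower in transplanted than cultured cells (22.5% and 64% of all genes were). In adult against cultured cells 12 and 22 of 40 were (23% and 62.1% of all genes), and in adult against transplanted cells 10 and 16 of 38 (44.3% and 34.8%). Hsf1 had no count in any cell. Grpel1, the exchange factor of Hspa9, was 43.4-fold higher in transplanted (14.8 to 211) and 23.6-fold in adult than in cultured cells (8.01 to 115), on 3 cultured counts in cell A. Without transplanted D and adult D the folds were 16.1 and 13.6. Fkbp4, an Hsp90 cochaperone of steroid receptors, was at least 21.4-fold higher in transplanted and 21.6-fold in adult than in cultured cells, where it had no count (8.00 without transplanted F, 9.18 without adult A). The prefoldin genes Pfdn1 and Pfdn5 were 6.80-fold (3.86 to 13.3) and 6.33-fold (2.42 to 23.5) higher in transplanted than cultured cells. They were 4.49-fold (2.53 to 8.77) and 39.5-fold (15.4 to 145) higher in adult cells. For Pfdn1 the transplanted fold was 2.11 without transplanted H and 73.8 without cultured A, and the adult fold was 1.92 without adult A and 48.7 without cultured A. For Pfdn5 the adult fold was 20.9 without adult A, and cultured counts came from cell A alone. Smyd1, which helps Hsp90 and Unc45b in building myosin filaments, was 35.0-fold lower in transplanted (25.0 to 50.1; 8.09 without cultured B, 98.3 without transplanted A) and 467-fold lower in adult than in cultured cells (158 to 2279.7; 108 without cultured B). P4hb, a disulfide isomerase of the reticulum, was at least 143-fold lower in transplanted (83.9 without cultured A) and 2.33-fold lower in adult than in cultured cells (1.74 to 3.10; 1.36 without cultured A, at least 121 without adult G). Naca, which meets new chains at the ribosome, was 8.90-fold (6.43 to 12.4; 2.99 without cultured D, 21.7 without transplanted E) and 17.4-fold lower (11.6 to 26.7; 5.84 without cultured D, 45.1 without adult G).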

How the data were processed

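Cells were taken by flow sorting or by hand under a microscope, and their cDNA was amplified whole, cut with Tn5 and sequenced, per the labels' protocols. No molecular identifiers are stated, so counts are reads. The deposited file holds raw read counts, as whole numbers, for each gene in each cell. The submitters' processing notes name TopHat2 2.1.0, HTSeq, DESeq2 and mm10, with no roles. The annotation, strandedness and gene selection were not given in the sources used here. Counts of near-identical or overlapping genes are uncertain.

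Counts were summed over the 8 cells of a group and divided by the group's total. CPM carry exact Poisson, ratios exact conditional binomial and shares exact Clopper-Pearson 95% intervals. Reads are not independent molecules, so these cover counting error only. A group at 0 was set to 3 counts, giving a bound against that floor and not a 95% bound. No ratio was formed with both groups at or under 3. Past 2-fold counts need at least 10 counts over both groups, and log2 medians use a pseudocount of 1 CPM. The ratio code was tested on simulated data. The members and gene lists were chosen with earlier results of these data known. Named with values are members with at least 50 CPM and counts in at least 4 cells of a group, every small heat shock protein, Hsp70 and Hsp90 member with a count, the highest 2 of any class with fewer, and, of the further cofactors, those with at least 200 CPM in 4 cells. No pair of cells held identical values. Scaling alternatives used edgeR 4.0.16 (TMM) and DESeq2 1.42.0 (size factors), with no model fitted. Exon lengths and 50-base words came from GENCODE M21.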

Additional observations from a re-analysis of the deposited data

Results flagged for a closer look

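Within each group, cells were compared on log2(CPM + 1) for 123 class sums and named genes, and 39 had a highest or lowest cell that stood apart by Dixon's 95% criterion. The criterion's rate of about 1 in 20 groups is for normally distributed values. Counts with many zeros are not such values, so the 39 cannot be set against that rate. In 29 of the 39 all counts came from 1 cell, which meets the criterion by construction, and in 6 a single cell had none. Members outside the named genes were not compared and are left out of the lists that follow. Genes with counts in 1 transplanted cell were, in CPM, in cell A Hspa12a at 465 and Hspa14 at 70.4, in cell B Bag3 at 145, Hspb1 at 40.3 and Hspd1 at 274, in cell D Hspa1b at 6.39, in cell E Cct8 at 2197 and Hspa4l at 15.3, in cell F Hspa2 at 106 and Hspa4 at 522, in cell G Hsp90aa1 at 179.7, Hspa1a at 39.9 and Hspb8 at 49.9, in cell H Hspb3 at 1019.7. Genes with counts in 1 cultured cell were, in CPM, in cell A Grpel1 at 151 and Pfdn5 at 202, in cell C Hspa2 at 60.3, in cell D Hspa4l at 1112, in cell G Hspa1b at 309 and Hspd1 at 353, in cell H Hspa12b at 251.2. Genes with counts in 1 adult cell were, in CPM, in cell A Hspa4 at 26.8, in cell C Hspa12a at 6.94 and Hspb3 at 201, in cell D Cct8 at 4206, in cell F Hsph1 at 3206, in cell G Hspa1a at 186 and P4hb at 1047, in cell H Hspa4l at 4.73.

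The other cases concern cells that lack a class or gene the rest of their group has. Transplanted cell H, the deepest cell, had 5.81 CPM of Hsp90ab1 and of the Hsp90 class, from 2 counts, against a group median of 2095 CPM. Transplanted cell F had 6.61 CPM of Hspe1, which is also its sum of Hsp60 and Hsp10. Transplanted cell E had 0 CPM of Hspb6. Cultured cell H had 0 CPM of the Dnaj class. Adult cell A had 0 CPM of small heat shock proteins, although its Cryab count was 565. Adult cell H had 0 CPM of the Hsp90 class, adult cell F 0 CPM of Hsp60 and Hsp10, and adult cell G 0 CPM of Hspa5.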

How the results depend on the processing

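No paired analysis was possible because the letters A to H only name cells and no result comes from a test between groups. Scaling the group sums with TMM factors moved all ratios to cultured cells by 0.92 on the log2 scale, DESeq2 size factors by 0.22 (transplanted) and 0.14 (adult), and leaving Rn45s, Rpph1 and Ttn out of the totals by -0.20. With TMM factors the Hsp70 ratio turned to 1.43 for transplanted and was 3.06 for adult against cultured cells, the Hsp90 ratios were 3.37 and 0.956, the Dnaj ratios 2.07 and 3.97, and the members' median log2 ratio turned to 0.33 and was 1.48. With size factors, transplanted against cultured gave 2.08 for Hsp90, 1.28 for Dnaj and a median of -0.34, adult against cultured a median of 0.71, and adult against transplanted 0.791 for small heat shock proteins and 1.80 for Dnaj. Without the 3 genes, transplanted against cultured gave 1.55 for Hsp90, a turn to 0.952 for Dnaj and a median of -0.75, and adult against cultured 1.83 for Dnaj and a median of 0.39. With equal cell weights, Hsp70 turned to 1.09 for transplanted and was 2.15 for adult against cultured cells, Dnaj gave 1.30, 1.78 and, for adult against transplanted, 1.37, small heat shock proteins 0.913 for adult against transplanted, and the medians were -0.036, 0.23 and 0.85. Without its leading member Hspb6, an alternative chosen after seeing the data, the small heat shock ratios were 13.6, 21.6 and, turned, 1.59.

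Requiring at least 30 counts left 13 of 32 members lower in transplanted (50.7% of all genes) and 9 of 41 in adult than in cultured cells (50.2%), with medians of 0.64 (turned), 1.46 and, for adult against transplanted, 1.30. Without a minimum the medians were 0.13 for adult against cultured and 0.88 for adult against transplanted cells, with a pseudocount of 10 CPM -0.44 for transplanted against cultured and 0.82 for adult against transplanted, and with zeros at the floor 0.43 for adult against cultured. Counts that stayed past 2-fold without each cell in turn, also added later, were 7 higher and 9 lower, 10 and 8, and 12 and 3, in the order of the report. As a mean over cells, the shares of chaperone counts were 26.9% (transplanted) and 23.7% (adult) for small heat shock proteins, 19.3% (adult) for Hsp70, 28.6%, 26.1% and 8.82% for Hsp90 and 28.1% (adult) for Dnaj. Per exon length they were 40.1% and 28.5% for small heat shock proteins in transplanted and adult cells, 4.49%, 10.8% and 8.93% for Hsp70, 24.7% and 6.30% for Hsp90 in transplanted and adult cells, and 12.9%, 18.4% and 29.7% for Dnaj. The cause of these changes was not tested.

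Leaving out 1 cell at a time gave these ranges, for transplanted against cultured, adult against cultured and adult against transplanted cells in turn. Ratios of small heat shock proteins ran from 39.2 to 176, 33.0 to 148 and 0.727 to 1.02. Ratios of Hsp70 ran from 0.582 to 1.03, 1.28 to 2.02 and 1.57 to 2.77. Ratios of Hsp90 ran from 1.41 to 2.42, 0.363 to 0.637 and 0.203 to 0.357. Ratios of Dnaj ran from 0.849 to 1.40, 1.11 to 2.40 and 1.02 to 2.47. Members higher past 2-fold ran from 13 to 17, 19 to 22 and 20 to 25, members lower from 19 to 23, 14 to 20 and 11 to 16, and medians of log2 ratios from -1.01 to 0.47, 0.17 to 1.14 and 0.79 to 1.25. Shares of chaperone counts in transplanted, cultured and adult cells ran from 19.7% to 29.9%, 0.202% to 0.925% and 17.3% to 26.8% for small heat shock proteins, from 6.18% to 9.49%, 11.2% to 14.7% and 11.2% to 18.1% for Hsp70, from 23.0% to 34.4%, 17.3% to 26.0% and 4.86% to 8.31% for Hsp90, from 17.5% to 25.7%, 23.2% to 29.9% and 22.6% to 43.3% for Dnaj. Of 75 ratios of named genes past 2-fold, 9 turned without 1 cell, and of 37 others 19 did. Of the 9, those for transplanted against cultured cells were Bag1 (range 0.124 to 1.62, turned without cultured G), Dnajc15 (0.710 to 6.05, without transplanted F) and Hspa2 (0.776 to 3.44, without cultured C). For adult against cultured cells they were Bag3 (0.375 to 7.28, without adult G) and Hspb2 (0.454 to 5.44, without adult H), both ratios to the cultured floor. For adult against transplanted cells they were Bag3 (0.395 to 34.6) and Hspa1a (0.889 to 10.1) without adult G, Hspa4 (0.0472 to 1.81) without transplanted F and Hspb3 (0.00988 to 7.29) without transplanted H. Of the other leave-out values of named genes 1579 stayed within the ratio's counting interval, or within 1.5 times for bounds, and 181 did not. With equal cell weights 56 named ratios stayed within the interval and 20 did not. None of 48 past 2-fold turned, and 4 of 28 others did, among them Fkbp4 for adult against transplanted cells.

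Depth limits cultured cells most: 3 counts over the group are 14.6 CPM, and differences below that level were not detectable. With 1 sample a group, counting intervals say nothing of the spread between animals or cultures. Species, depth and the low share of cardiomyocyte markers in some cultured cells cannot be told apart from the groups.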
